A study of Mus musculus with 6 samples.

Results

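Expression of 10 genes of lipoprotein assembly and traffic was followed in the livers of mouse pups whose mothers had eaten 1 of 3 diets. The genes were Apob and Mttp, which act in the assembly of particles that carry apolipoprotein B, Apoa1, Apoa2, Apom and Abca1 of high density lipoprotein (HDL), Apoa4 and Apoa5, whose proteins act on triglyceride-rich particles, and Apoc1 and Apoe, which move between particles. They are a list of names with no threshold on a measured value. Each of the 10 was matched by exactly 1 probe that the platform annotation gives to a single symbol, out of 19938 genes with such a probe, and all 10 were among the 10977 genes bright enough to be tested (mean log2 signal of at least 5).

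The mice were C57Bl6/J. Mothers received a soybean oil diet (Control), a flaxseed oil diet (ALA, for alpha-linolenic acid) or a coconut oil diet (SFA, for saturated fatty acids), isocaloric and with 6 g% of oil, and fathers ate regular chow except at mating, when they shared the mothers' food. Livers were taken within 1 day of birth. Each diet had 2 Affymetrix arrays, each with RNA from a pool of 3 whole livers, so the spread between animals is averaged within an array. The labels give neither litter nor sex, and nothing says that the duplicate pools came from different animals, so p-values measure only the spread between these arrays, which may be technical.

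Liver and intestine package triglyceride and cholesteryl ester into large particles around apolipoprotein B, a process that needs the lipid transfer protein encoded by Mttp. HDL begins as apolipoprotein A-I that takes up phospholipid and cholesterol from the transporter ABCA1. Smaller apolipoproteins exchange between particles and steer lipolysis and clearance. Apolipoprotein A-V promotes the breakdown of triglyceride in plasma, apolipoprotein A-IV is made by intestine and by mouse liver and is known to rise in liver with lipid load, and apolipoprotein E is the ligand by which remnants are taken up.

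Both SFA arrays were slightly dimmer, with a log2 signal of 4.76 and 4.82 at the median probe against 4.90 to 4.96 elsewhere. Across the tested genes, which are no replicates of each other, duplicate arrays had a Pearson r of 0.977 to 0.986. The 12 hepatocyte markers were all bright, with means of at least 9.74, and their summed signal ran from 15.49 to 15.68 on the log2 scale over the 6 arrays. In whole liver, fewer cells of a type and less RNA per cell cannot be told apart. The pools also differed in sex makeup: the Y-linked gene Eif2s3y was at 3.63 and 7.95 on the Control arrays, at 7.74 and 7.80 for ALA and at 4.11 and 3.79 for SFA. The sex-linked gene Xist was at 10.67 and 8.34 on the Control arrays, at 3.76 and 4.24 for ALA and at 9.46 and 9.51 for SFA. Control replicate 2 was thus high in both genes, and neither Control array had the low Xist of the ALA arrays. Sex makeup and diet thus cannot be fully told apart in any comparison below. Control replicate 1 and both SFA arrays, however, shared a low Y-linked signal and a high Xist. Both ALA arrays were high in the Y-linked signal and low in Xist, so for ALA against SFA sex makeup and diet cannot be told apart at all.

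Most of the 10 genes differed little between the diets, and the exceptions were Apoa4 and Apoa5. Apoa4 rose 2.14-fold in ALA livers and 2.05-fold in SFA livers against Control. Apoa5 fell by 56.5% in SFA livers, and its change in ALA livers did not pass the test. For each of the other 8 genes the 3 diet means lay within 0.35 of each other on the log2 scale. Counting genes called at an adjusted p below 0.05 (limma, Benjamini-Hochberg over all 10977 genes, n = 2 arrays a diet), 1 of the 10 was called for ALA against Control, where 7.93% of all tested genes were. For SFA against Control 2 of the 10 were called, where 13.8% of all genes were, and for ALA against SFA 1 of the 10, where 1.53% were. Of all tested genes 5.11% rose and 2.82% fell on ALA, 6.62% rose and 7.15% fell on SFA, and 1.09% were higher and 0.437% lower on ALA than on SFA, and 13.5% were called by the test for any diet difference, as were Apoa4 and Apoa5. Among only 10 genes 1 call is a share of 10%, so the first of these counts is near the background and nothing is read from the others.

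**Figure D1:**
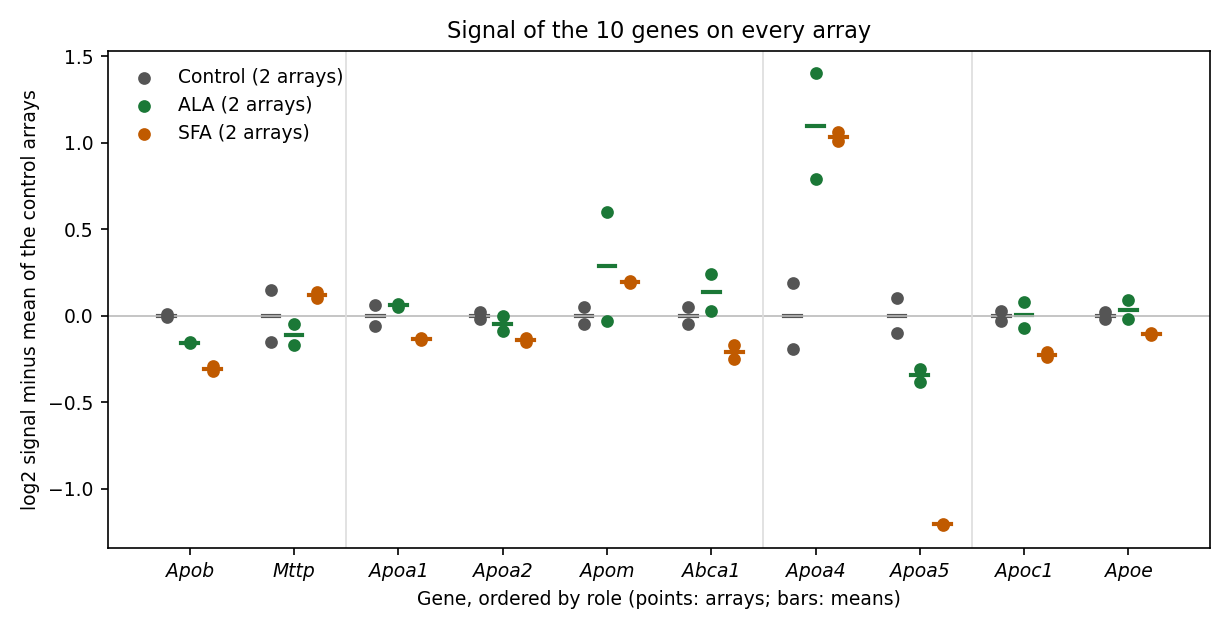
Log2 signal of the 10 genes on each array, minus the mean of the 2 Control arrays (y axis), with a point for each array and a bar for the mean of each diet; genes are ordered by role along the x axis. Apoa4 lies between 0.79 and 1.40 on the ALA and SFA arrays, and Apoa5 at -1.21 and -1.20 on the SFA arrays.

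The log2 signals of Apoa4 were 9.59 and 9.21 for Control, 10.80 and 10.19 for ALA and 10.41 and 10.46 for SFA. Every ALA and SFA array was above both Control arrays, and the ALA duplicates lay 0.61 apart, wider than the Control duplicates at 0.38 and the SFA duplicates at 0.05. Against Control the change was 1.09 (SE 0.22, 95% interval 0.57 to 1.62, limma adjusted p = 0.0328) on ALA and 1.04 (SE 0.22, 0.51 to 1.57, adjusted p = 0.029) on SFA. The ALA change was larger in size than 96.6% of those of all tested genes. Both calls were lost when some single arrays were left out, although without an SFA array the changes themselves stayed at 1.01 to 1.09. The ALA change no longer passed when Control replicate 1 (1.28, limma adjusted p = 0.0593), Control replicate 2 (0.91, 0.148), ALA replicate 1 (0.79, 0.0901) or 1 SFA array (1.09, 0.0663) was left out, or with only the Control and ALA arrays (1.09, 0.0663). The SFA change no longer passed without Control replicate 1 (1.23, 0.0537), Control replicate 2 (0.85, 0.137), SFA replicate 1 (1.06, 0.112) or SFA replicate 2 (1.01, 0.126).

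Apoa5 stood at 10.87 and 10.66 on the Control arrays, 10.46 and 10.38 on the ALA arrays and 9.56 and 9.57 on the SFA arrays. The 3 diets did not overlap, and ALA lay between Control and SFA. On SFA it fell by 1.20 on the log2 scale (SE 0.13, interval -1.51 to -0.90, limma adjusted p = 0.00419), a 2.3-fold difference. This call held in all 15 alternative analyses, which were not all separate. Leaving out either ALA array gave the same fit as using only the SFA and Control arrays. Apoa5 also had only 1 probe, so the mean of a gene's probes left its values as they were. Without Control replicate 2 the Apoa5 change on SFA was -1.31 and that of Apoa4 was 0.85. Each of these rests on 1 Control array, which has no spread of its own. The part of sex makeup in the changes of Apoa4 and Apoa5 was not tested. On ALA Apoa5 was at -0.35 (SE 0.13, interval -0.65 to -0.04), which did not pass (limma adjusted p = 0.154).

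No scaling of whole arrays by a constant can alter the log2 ratio of Apoa4 to Apoa5 within an array. The genes moved opposite ways, although Apoa5 on ALA did not pass. The ratio therefore had to differ further from Control than either gene, and nothing is read from its size. Set against its Control mean, it stood at 1.71 and 1.17 for ALA and at 2.22 and 2.26 for SFA, with the Control arrays at 0.08 and -0.08. A ratio shows unequal change and not which of the genes changed.

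Apoa1, Apoa4 and Apoa5 are neighbours on chromosome 9, in a cluster with Apoc3. Their promoters are shown because these genes lie in 1 cluster on the same strand, and on SFA 1 rose, 1 fell and 1 did not pass. Each line holds the 250 bases before the RefSeq gene start (GRCm38.p6, plus strand, 5′ to 3′): chr9:46228380-46228629 for Apoa1, chr9:46240594-46240843 for Apoa4 and chr9:46268358-46268607 for Apoa5. Capitals mark matches to any of 7 motifs searched on both strands.
Apoa1: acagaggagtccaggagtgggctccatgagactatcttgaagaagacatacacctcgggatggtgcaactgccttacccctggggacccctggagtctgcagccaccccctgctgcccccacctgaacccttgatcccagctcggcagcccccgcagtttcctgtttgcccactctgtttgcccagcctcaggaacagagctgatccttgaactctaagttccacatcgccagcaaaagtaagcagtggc
Apoa4: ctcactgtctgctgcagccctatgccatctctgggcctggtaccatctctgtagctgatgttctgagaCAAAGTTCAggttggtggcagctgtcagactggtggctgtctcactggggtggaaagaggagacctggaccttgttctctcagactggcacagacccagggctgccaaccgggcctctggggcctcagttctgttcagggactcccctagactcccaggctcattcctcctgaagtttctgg
Apoa5: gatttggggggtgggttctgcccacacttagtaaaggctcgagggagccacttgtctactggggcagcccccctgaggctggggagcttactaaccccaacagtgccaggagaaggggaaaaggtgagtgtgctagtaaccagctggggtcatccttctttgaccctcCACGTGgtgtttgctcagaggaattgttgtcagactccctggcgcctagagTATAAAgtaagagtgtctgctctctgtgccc
The motifs were the TATA box (TATAAA, in 12.4% of all 32851 promoter windows of this length), a nuclear receptor half-site (AGGTCA, 14.0%), its direct repeats with 1 base between (0.0335%) and with 4 bases between (0.0152%), which both contain the half-site, an HNF4 site (CAAAGTNCA, 1.19%), a forkhead site (TGTTTAC, 3.17%) and an E-box (CACGTG, 6.02%). The Apoa4 window held the letters of an HNF4 site, beginning 182 bases before the start. These letters were widened after the promoters were seen, so nothing is read from this match or from its share of windows. The Apoa5 window held an E-box beginning 82 bases and a TATA box beginning 31 bases before the start. The Apoa1 window held no match to these letters. A match is a string of letters and does not show that a factor binds.

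Along the chromosome the changes followed no common direction. In RefSeq order the protein-coding genes are Pafah1b2, Sik3, Apoa1, Apoc3, Apoa4, Apoa5, Zpr1 and Bud13, the first and last pair being the nearest genes outside the cluster. Apoc3, whose protein restrains lipolysis and remnant uptake, was at 12.25 and 12.21 on the Control, 12.28 and 12.18 on the ALA and 12.09 and 12.08 on the SFA arrays, and did not pass (log2 change 0 on ALA and -0.15 on SFA). Zpr1, a zinc finger protein gene next to Apoa5, was at 8.65 and 8.47 on the Control, 8.04 and 8.31 on the ALA and 7.53 and 7.57 on the SFA arrays. Its diets did not overlap and stood in the same order as those of Apoa5. It fell by 1.01 on SFA (SE 0.14, limma adjusted p = 0.00862), a call lost without SFA replicate 1 (-0.99, 0.0603) or SFA replicate 2 (-1.03, 0.0521), and was at -0.38 on ALA (SE 0.14, adjusted p = 0.157). Neighbours were looked up after the value of Apoa5 was known, so Zpr1 was named after its values were seen. Bud13, the next gene, was at -0.13 and 0.07, and Sik3 and Pafah1b2 on the other side at 0.30 and -0.06 on ALA and at 0.10 and 0.16 on SFA, all without a call.

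**Figure D2:**
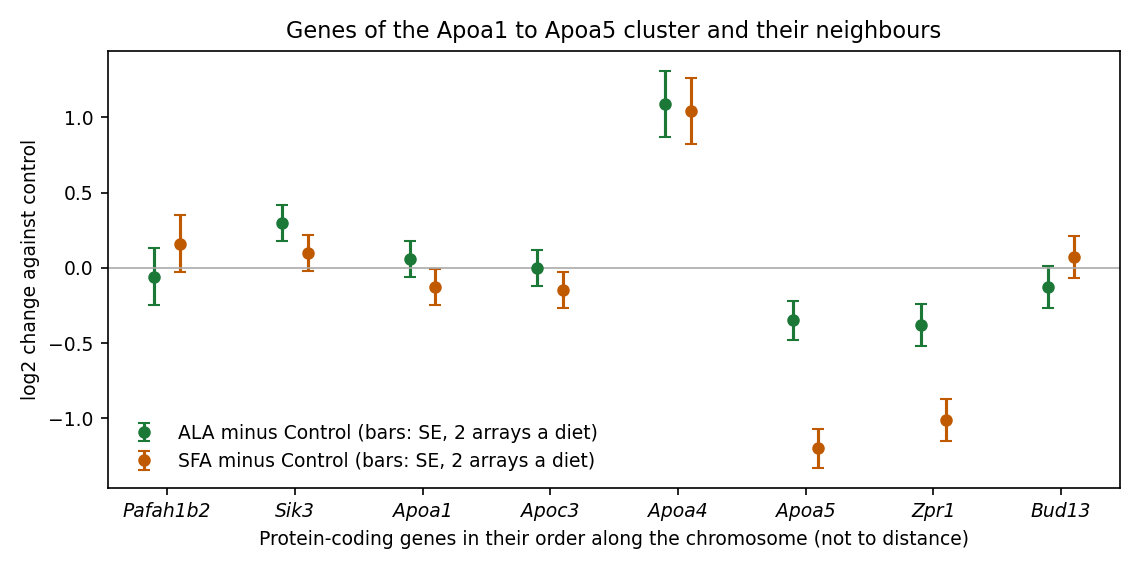
Log2 change against Control (y axis) for ALA and SFA livers, with SE bars from 2 arrays a diet, for the genes of the cluster and the nearest genes on each side in chromosome order (x axis, not to distance). Apoa4 is above 1 on both diets, while Apoa5 and Zpr1 are at -1.20 and -1.01 on SFA, and the remaining genes lie between -0.15 and 0.30.

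The genes of apolipoprotein B assembly did not pass in any comparison. Apob, the structural protein of very low density lipoprotein, was at 11.90 and 11.92 on the Control arrays, 11.76 and 11.75 on the ALA arrays and 11.62 and 11.59 on the SFA arrays. Duplicates lay at most 0.04 apart and the 3 diets did not overlap, with SFA lowest. The change was -0.31 on SFA (SE 0.11, interval -0.58 to -0.03, adjusted p = 0.121) and -0.15 on ALA (SE 0.11, adjusted p = 0.467). The SFA change passed where the spread was moderated by signal level, with limma's trend and robust options (SE 0.07, adjusted p = 0.0226). Mttp was at 10.17 and 9.86 on the Control, 9.97 and 9.85 on the ALA and 10.11 and 10.15 on the SFA arrays. The Control duplicates of Mttp lay 0.31 apart, wider than its span of 0.23 between diet means, and its changes were -0.11 on ALA and 0.12 on SFA (SE 0.14 for each).

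Among the HDL genes no change passed. Apoa1, the main protein of HDL, was at 12.38 and 12.51 on the Control, 12.49 and 12.51 on the ALA and 12.30 and 12.31 on the SFA arrays, with changes of 0.06 on ALA (interval -0.22 to 0.34) and -0.13 on SFA (interval -0.42 to 0.15). Apoa2, the second protein of HDL, was at 12.50 and 12.46, at 12.39 and 12.48, and at 12.35 and 12.33 on the Control, ALA and SFA arrays. Its changes were -0.04 (interval -0.32 to 0.23) and -0.14 (interval -0.42 to 0.14). For both genes the SFA arrays were the lowest of the 6.

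Apom, which encodes the HDL carrier of sphingosine-1-phosphate, was at 9.02 and 8.91 on the Control arrays, 8.94 and 9.57 on the ALA arrays and 9.17 and 9.15 on the SFA arrays. ALA replicate 2 alone was high: the ALA change of 0.29 (SE 0.20, adjusted p = 0.443) became -0.03 without it and 0.60 without ALA replicate 1. The SFA change was 0.19 (SE 0.20). Abca1 was at 9.17 and 9.27 on the Control, 9.46 and 9.25 on the ALA and 9.05 and 8.97 on the SFA arrays. Both SFA arrays were below all others, at -0.21 against Control (SE 0.13, adjusted p = 0.313) and 0.35 lower than ALA (interval 0.03 to 0.66 for ALA minus SFA, adjusted p = 0.187).

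Of the exchangeable apolipoproteins, Apoc1, whose protein inhibits lipoprotein uptake and lipolysis, was at 11.99 and 11.92 on the Control, 11.88 and 12.03 on the ALA and 11.75 and 11.71 on the SFA arrays. Its change was 0 on ALA (interval -0.29 to 0.30) and -0.22 on SFA (interval -0.51 to 0.07, adjusted p = 0.258). Apoe was at 12.55 and 12.51, at 12.62 and 12.51, and at 12.44 and 12.42 on the Control, ALA and SFA arrays. The changes of Apoe were 0.03 on ALA and -0.10 on SFA, each with an SE of 0.12. On chromosome 7 Apoc1 and Apoe lie beside Apoc4, which was at 0.19 on ALA and -0.02 on SFA without a call. Macrophages are known to express Apoe and Abca1. All 10 macrophage and Kupffer cell markers rose on ALA (median change 1.29) and 7 of 10 on SFA (median 1.20), with a summed log2 signal of 11.08 and 10.91 on the Control arrays and from 11.93 to 12.41 on the others. The part of these cells in the levels of Apoe and Abca1 was not tested.

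**Figure D3:**
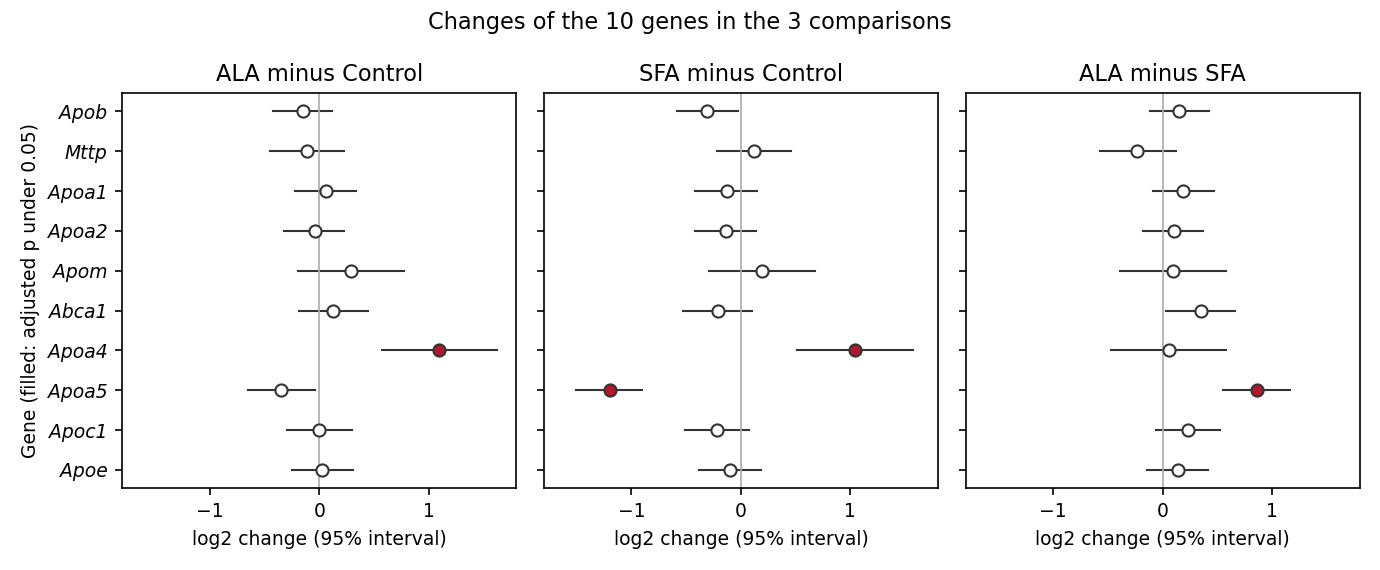
Log2 change (x axis) with its 95% interval for each of the 10 genes (y axis) in the 3 comparisons, from 2 arrays a diet; filled points passed an adjusted p of 0.05. Filled points are Apoa4 for ALA and for SFA against Control, and Apoa5 for SFA against Control and for ALA against SFA.

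Apob, Apoc1, Apoa1, Apoa2 and Apoe were close to the top of the signal range, where an array may resolve differences less well. Means of Apoa1, Apoa2 and Apoe were above 12, and the brightest probe of an array reached 13.07 to 13.12 on the Control and ALA arrays, and 12.76 and 12.67 on the SFA arrays. The 26 tested genes with a mean of at least 12 had a median SFA change of -0.13, with 21 of 26 below 0 and 0 called with limma (2 had an unadjusted p below 0.05). Albumin (Alb) was at -0.14. The SFA changes of Apoa1, Apoa2 and Apoe, from -0.14 to -0.10, were of that size. On ALA the median of the 26 was -0.01.

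**Figure D4:**
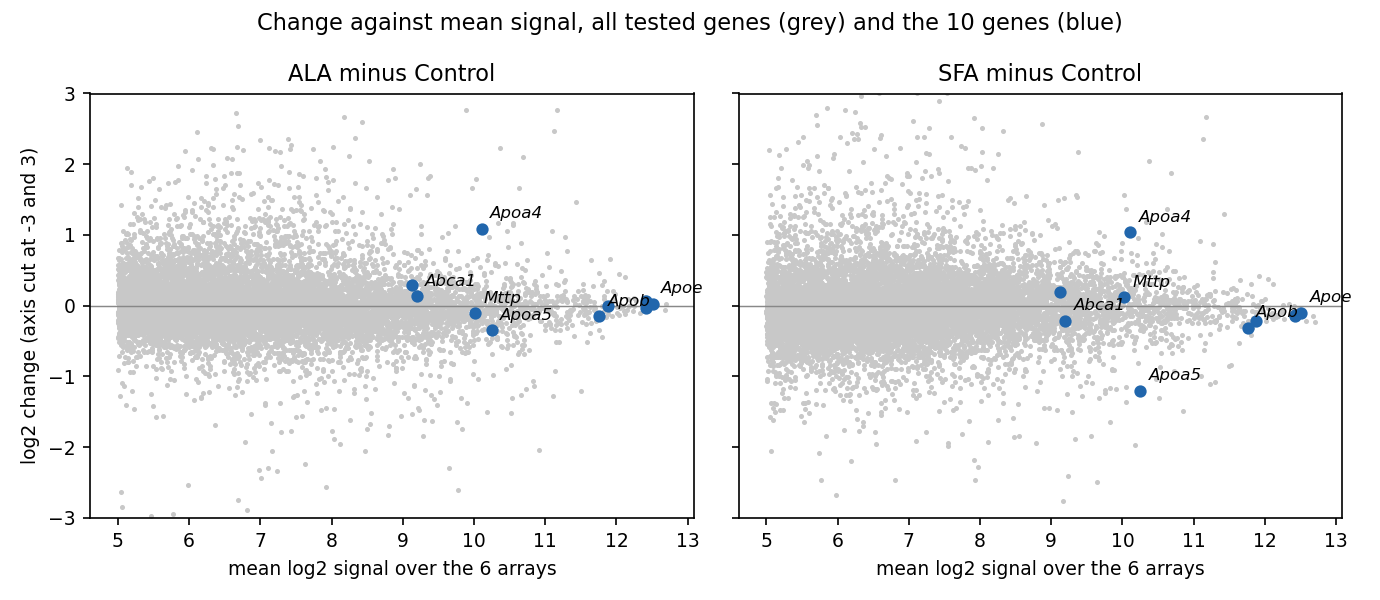
Log2 change against Control (y axis, cut at -3 and 3) against the mean log2 signal over the 6 arrays (x axis) for all 10977 tested genes in grey and the 10 genes in blue, for ALA (left) and SFA (right). The spread of changes narrows toward high signal, where Apob, Apoc1, Apoa1, Apoa2 and Apoe lie, and Apoa4 in both panels and Apoa5 in the right panel stand at the edge of the cloud. Genes beyond the cut are not drawn.

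Over the 10 genes the median log2 change was 0.02 on ALA, beside -0.01 over all tested genes, and -0.14 on SFA, beside -0.05. On SFA 7 of the 10 were below 0 in the values as deposited, where 55.2% of all tested genes were. Under each of 3 other scalings of the arrays 7 of the 10 were below 0 too. There the median of all tested genes was 0.05 (75th percentile centring), 0.04 (quantile normalization) and 0.02 (cyclic loess), and the 55.2% does not apply. On ALA 4 of the 10 were below 0, and 5 after centring or quantile normalization. The arrays of SFA and Control did not overlap for 9 of the 10 genes, beside 64.2% of all tested genes, and those of ALA and Control for 3 of the 10, beside 55%. Both comparisons used the same Control arrays.

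Set against each other, the 2 oil diets differed in Apoa5. It was higher in ALA than in SFA livers by 0.86 on the log2 scale (SE 0.13, interval 0.55 to 1.16, limma adjusted p = 0.0393), a 1.81-fold difference. The arrays did not overlap, but the call lay close to the threshold and passed in only 5 of 15 alternatives. It was lost after 75th percentile centring (0.75, adjusted p = 0.0513), without a filter on dim genes (0.86, 0.0627), with only the ALA and SFA arrays (0.86, 0.0671), with the replicate number as a block (0.86, 0.068), and without Control replicate 1 or 2 (0.86, 0.0671), ALA replicate 1 (0.82, 0.105), ALA replicate 2 (0.89, 0.0900), SFA replicate 1 (0.85, 0.169) or SFA replicate 2 (0.86, 0.191). For Apoa4 the difference was 0.06 with an interval from -0.47 to 0.58, which leaves room for a difference of either sign. The remaining 8 genes differed by -0.23 (Mttp) to 0.35 (Abca1) without a call. The arrays of ALA and SFA did not overlap for 8 of the 10 genes, beside 55.8% of all tested genes. ALA was the higher diet for 9 of the 10 genes, and also for 9 with quantile normalization or cyclic loess. It was higher for 6 of the 10 after 75th percentile centring. The median difference over all tested genes was 0.04, and -0.05, -0.02 and -0.07 under these scalings in turn.

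Genes that work with these proteins were followed through 71 further names in 6 lists, of which 62 were on the array with a single symbol and 59 were tested. The other 9 were not analysed here. On ALA 6 rose and 2 fell (median of the 59 at -0.03), and on SFA 3 rose and 5 fell (median -0.14). Between ALA and SFA 0 of the 59 were called with limma, and 12 had an unadjusted p below 0.05. The shares called, 8 of 59 in each diet, stand beside the 7.93% and 13.8% of all tested genes given above.

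Of 15 genes of assembly and secretion, 2 fell on ALA and 3 on SFA, and none rose with limma's adjusted test (3 on ALA and 7 on SFA had an unadjusted p below 0.05 in either direction). Sort1 encodes sortilin, a sorting receptor that binds apolipoprotein B in the secretory pathway. It was at 7.34 and 7.54 on the Control, 6.46 and 6.41 on the ALA and 6.82 and 6.79 on the SFA arrays, and fell by 1.01 on ALA (SE 0.13, limma adjusted p = 0.0077) and by 0.64 on SFA (SE 0.13, adjusted p = 0.0233). The diets did not overlap. Mia3, whose product helps bulky cargo leave the endoplasmic reticulum, fell by 0.85 on ALA (adjusted p = 0.0226) and by 0.74 on SFA (adjusted p = 0.0256). A1cf, a cofactor of apolipoprotein B mRNA editing, fell by 0.54 on SFA (adjusted p = 0.0385) and was at -0.26 on ALA. The triglyceride synthesis genes Dgat1 and Dgat2 were at -0.33 and 0.15 on ALA and at -0.14 on SFA for both, without a call.

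Of 9 other apolipoproteins and HDL-borne proteins 0 were called on ALA with limma (1 had an unadjusted p below 0.05), and on SFA 1 fell. That was Pon3, an HDL-borne lactonase gene, at -0.56 on both diets (adjusted p = 0.0457 on SFA and 0.0603 on ALA). Of 9 genes of HDL remodelling and sterol efflux 1 rose on ALA and 0 were called on SFA with limma (1 had an unadjusted p below 0.05). Abcg1, a transporter that adds cholesterol to HDL, was at 6.59 and 6.39 on the Control, 7.19 and 7.03 on the ALA and 6.55 and 6.56 on the SFA arrays, with ALA above all others. It rose by 0.63 on ALA (SE 0.13, adjusted p = 0.0364) and was at 0.07 on SFA.

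Of 7 receptor and clearance genes 1 rose on each diet. Mylip, a ubiquitin ligase gene that responds to sterols, was at 6.92 and 6.59 on the Control, 8.04 and 7.81 on the ALA and 7.50 and 7.66 on the SFA arrays. It rose by 1.17 on ALA (SE 0.16, adjusted p = 0.00952) and by 0.82 on SFA (SE 0.16, adjusted p = 0.0221).

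Of 6 genes of lipolysis in the circulation 2 rose on ALA, and on SFA 1 rose and 1 fell. Lpl, the lipase that apolipoprotein A-V helps to act, was at 5.67 and 6.45 for Control, 9.16 and 9.87 for ALA and 10.02 and 10.07 for SFA, with no overlap between Control and either diet. It rose by 3.45 on ALA and by 3.98 on SFA (SE 0.30 for each, adjusted p = 0.00339 and 0.00181). Macrophages are known to express Lpl and Abcg1 too, and the part of the macrophage markers given above in these values was not tested. Gpihbp1, which holds that lipase on capillary endothelium, rose by 0.72 on ALA (adjusted p = 0.0256) and was at 0.19 on SFA. Lipg, the endothelial lipase gene, fell by 1.34 on SFA (adjusted p = 0.0403) and was at -0.35 on ALA. The 6 endothelial markers had a median change of 1.24 on ALA and 0.83 on SFA (4 and 5 rose), with a summed log2 signal of 10.03 and 9.46 on the Control arrays and from 10.74 to 11.26 on the others, and their part in the values of Gpihbp1 and Lipg was not tested.

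Of 13 transcription factor genes 2 rose on ALA and 1 on SFA. Foxo1, a forkhead factor that insulin holds out of the nucleus, rose by 0.71 on ALA (SE 0.15, adjusted p = 0.035) and by 0.68 on SFA (SE 0.15, adjusted p = 0.0303). Cebpb, of the CCAAT enhancer binding family, rose by 0.81 on ALA (adjusted p = 0.0324) and was at 0.30 on SFA. The other 11 did not pass on ALA and the other 12 did not pass on SFA. Nr0b2, a nuclear receptor gene that represses other nuclear receptors, had the lowest ALA value of the list at -1.11 (SE 0.27, adjusted p = 0.0533) and was at -0.58 on SFA. Hnf4a, a main regulator of apolipoprotein genes in liver, was at -0.02 on ALA and -0.10 on SFA.

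The calls of Lpl on both diets and of Sort1 on ALA held without any single array, and that of Mylip on ALA was lost only without Control replicate 2 (1.01, limma adjusted p = 0.0534). On SFA the calls of Sort1 (-0.74 to -0.54, adjusted p up to 0.114) and Mylip (0.66 to 0.99, up to 0.116) were lost without Control replicate 2 or either SFA array, and those of Pon3 (-0.65 to -0.47, up to 0.185), Mia3 (-0.82 to -0.65, up to 0.122), A1cf (-0.58 to -0.50, up to 0.159) and Foxo1 (0.60 to 0.77, up to 0.137) without any 1 Control or SFA array. On ALA those of Mia3 (-1.01 to -0.68, up to 0.113), Gpihbp1 (0.59 to 0.85, up to 0.117) and Foxo1 (0.55 to 0.88, up to 0.151) held in 1 of 6 cases each, without ALA replicate 1, Control replicate 1 and ALA replicate 2 in turn. Cebpb (0.70 to 0.92, up to 0.134) was lost without any 1 Control or ALA array. Abcg1 on ALA (0.53 to 0.72, 0.067 to 0.156) and Lipg on SFA (-1.74 to -0.95, 0.0557 to 0.174) were lost without any 1 of the 6 arrays.

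**Figure D5:**
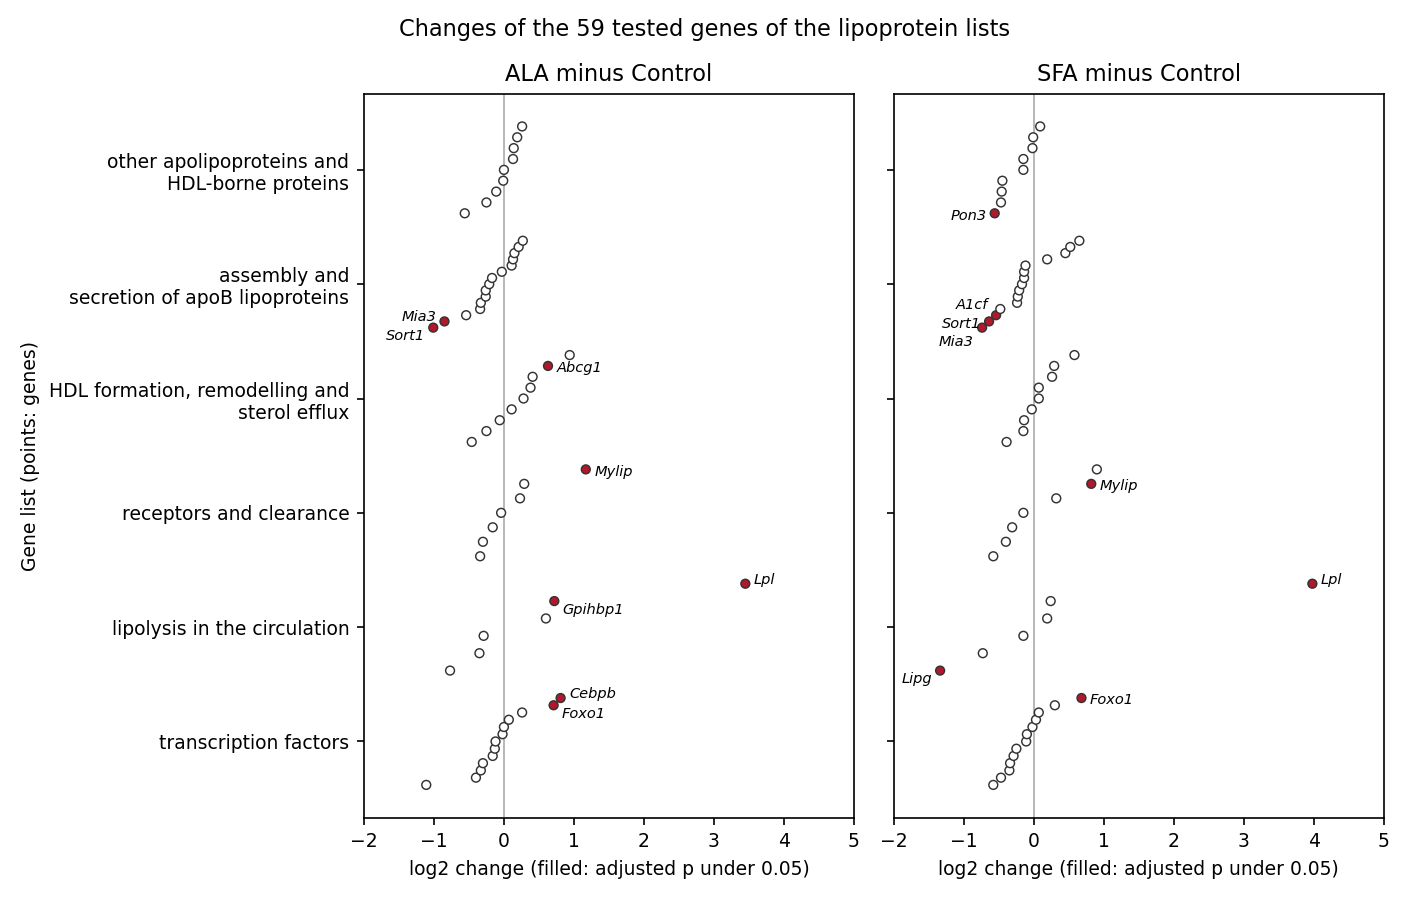
Log2 change against Control (x axis) of the 59 tested genes of the 6 lists (y axis, a point for each gene) on ALA (left) and SFA (right), from 2 arrays a diet, with called genes filled and named. Most points lie within 1 of 0, and Lpl stands apart at 3.45 and 3.98.

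For Apoa4 and Apoa5, whose diet means span at least 1 on the log2 scale, the tested genes with the most similar pattern over the 6 arrays were sought by Pearson correlation. With so few arrays many genes come close: 125 genes had r above 0.95 with Apoa4 and 182 with Apoa5, and all share the same libraries. Nearest to Apoa4 were Rgl1, Polr2a and Foxo1, each with r = 0.996. As they were chosen for this likeness, their means were bound to be higher on both diets than on Control. The means went from 6.40 on Control to 7.11 on ALA and 7.09 on SFA for Rgl1. They went from 8.19 to 8.56 and 8.51 for Polr2a, and from 7.96 to 8.67 and 8.64 for Foxo1. The changes of Polr2a did not pass (adjusted p = 0.13 on ALA and 0.138 on SFA). Nearest to Apoa5 were Slc7a2 (r = 0.997), Vps13d (0.993) and Mtor (0.990), and its neighbour Zpr1 had r = 0.97. All 3 had smaller spans than Apoa5: Slc7a2 went from 10.75 on Control to 10.60 on ALA and 10.28 on SFA, Vps13d from 8.64 to 8.47 and 8.08, and Mtor from 8.21 to 8.06 and 7.75.

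Intestine also makes apolipoproteins A-IV and B, and a newborn liver could be dissected with some gut. Of 8 enterocyte markers 6 had a mean below 5, among them the sucrase-isomaltase gene Sis, at 2.87 to 3.14. Their summed log2 signal was 9.34 and 8.76 on the Control arrays and from 8.42 to 8.46 on the others. Fabp2, an intestinal fatty acid binding protein gene that gave most of that sum, was at 8.89 and 8.19 on the Control arrays and between 7.41 and 7.78 on the others. Alpi, another of the dim enterocyte markers, was higher on ALA, at 5.88 and 5.16. It was at 4.51 and 4.47 on the Control arrays and at 4.12 and 4.35 on the SFA arrays. The part of gut RNA in the level of Apoa4 was not tested. Among hepatocyte markers 2 of 12 rose on ALA and 1 on SFA, with medians of 0.09 and -0.06. Of 5 fetal liver markers 2 rose on ALA and 4 on SFA, with medians of 0.74 and 1.68 and a summed log2 signal of 7.47 and 7.57 on the Control arrays against 8.56 to 9.37 on the others. Gpc3 and Mest rose on both diets (3.33 and 1.79 on ALA, 3.96 and 2.03 on SFA) and Afp and Igf2 rose on SFA (1.68 and 1.57) and were at 0.60 and 0.74 on ALA without a call, while Dlk1 was at 0 on ALA and -0.70 on SFA without a call. The part of fetal expression in the values of Apoa4 and Apoa5 was not tested. Of 6 stellate cell markers 4 rose on ALA and 6 on SFA (medians 1.04 and 0.92), of 3 tested erythroid markers 1 rose on each diet (medians 1.16 and 1.50), and of 2 tested pancreatic acinar markers 0 were called on either diet with limma (0 had an unadjusted p below 0.05).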

How the data were processed

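RNA from 6 liver pools of newborn mice (2 for each maternal diet) was hybridised to Affymetrix arrays. The authors' deposited values are log2 signals, made with RMA in Partek 6.6 per the submitters' processing notes, and RMA settings are not given in the sources used here. No scanner files were used here, and signal over background is unknown for single probes. The number of arrays limits the precision.

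Of 35556 probes, 21789 had 1 gene symbol, 1621 several and 12146 none in the platform annotation. For each of 19938 genes the brightest probe was kept, and 10977 genes with a mean log2 signal of at least 5 were tested. Means per diet were fitted with limma 3.58.1 (lmFit and eBayes, R 4.3.3) over all 6 arrays, with 3 residual degrees of freedom a gene, and p-values were adjusted over all tested genes (Benjamini-Hochberg). Genes called had an adjusted p below 0.05. The code was tested on simulated data.

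All 10 genes are named, with every called gene of the 6 pathway lists, a few uncalled factors and enzymes chosen after their values were seen, the 3 genes most like Apoa4 and Apoa5, and neighbouring genes. The members and lists were chosen with earlier results of these data known. Marker lists of hepatocytes, fetal liver, macrophages, endothelium, stellate cells, erythroid cells, enterocytes and pancreatic acinar cells were followed too. Promoters came from RefSeq (GRCm38.p6), which held 9 of the 10 genes and not Apoc1. The letters of the HNF4 motif were widened after the promoters were seen. Alternatives were 3 other scalings, other filters, the mean of a gene's probes, moderation by signal level, only the arrays of the diets compared, a replicate block, and leaving out each array, where a lone array is assumed to vary like the other groups.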

Additional observations from a re-analysis of the deposited data

How the results depend on the processing

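Of 450 alternative values for the 10 genes, 414 kept their direction and their side of the threshold, but most of these had no call to lose. A call was lost in 20, and 1 gained one (Apob on SFA, above). Lost were 6 of 15 for Apoa4 on ALA, 4 of 15 for Apoa4 on SFA and 10 of 15 for Apoa5 between ALA and SFA. The alternatives were not all separate. Each gene had 1 probe, so the mean of probes left its changes as they were. Leaving out an array of the third diet repeated the fit of the 2 diets compared. The sign changed in 15, all among changes without a call. Against Control on ALA, Apoa1 went to -0.01 without Control replicate 1, Apoa2 to 0 and Apoe to -0.02 without ALA replicate 1, Apom to -0.03 without ALA replicate 2, and Mttp to 0.05 without Control replicate 1. Apoc1 went to -0.01 with 75th percentile centring, to -0.05 with quantile normalization, to -0.03 without Control replicate 2 and to -0.07 without ALA replicate 2. On SFA Mttp went to -0.04 without Control replicate 2. Between ALA and SFA, centring gave -0.01 for Apoa2, -0.05 for Apoa4 and -0.02 for Apom, Apoa4 went to -0.25 without ALA replicate 1 and Apom to -0.22 without ALA replicate 2. Over all left-out arrays the values ran from -0.01 to 0.12 for Apoa1, -0.09 to 0 for Apoa2, -0.07 to 0.08 for Apoc1, -0.02 to 0.09 for Apoe, -0.03 to 0.60 for Apom and -0.26 to 0.05 for Mttp on ALA, and from -0.04 to 0.27 for Mttp on SFA. Between ALA and SFA they ran from -0.25 to 0.36 for Apoa4 and -0.22 to 0.41 for Apom. Leaving out 1 array gave 0 to 1 called of the 10 for ALA against Control, 1 to 2 for SFA against Control, 0 for ALA against SFA and 1 to 2 for any diet. The count was 0 for ALA against Control with only the arrays of those diets, and 0 for ALA against SFA with centring, no filter, only those diets or the replicate block. In the reported limma analysis 2 of the 10 had an unadjusted p below 0.05 in each of these comparisons. Over all genes, leaving out 1 array gave 267 to 475 calls for ALA against Control (871 with all), 245 to 1428 for SFA (1512), 0 to 36 for ALA against SFA (168) and 318 to 988 for any diet (1477). With only the arrays compared, 448 were called for ALA against Control and 11 for ALA against SFA. For ALA against SFA centring gave 100, quantile normalization 68, cyclic loess 76, no filter 32, a minimum signal of 6 gave 293, and trend with robust moderation 421. Same-numbered arrays did not deviate together (correlations of -0.03, 0 and 0.02), and with the replicate block 719 genes were called for ALA against Control, 1232 for SFA against Control and 0 for ALA against SFA, where 2463 had an unadjusted p below 0.05 without the block. The share of calls that were higher was 48.1% for SFA against Control, and 66.1%, 64.7% and 62% with centring, quantile normalization and cyclic loess. For ALA against SFA it was 71.4%, and 42%, 50% and 55.3%. Among pathway genes the calls of Pon3 and A1cf on SFA ended with centring, no filter or the block, Abcg1 and Foxo1 on ALA without the filter, Cebpb on ALA with the block, and Lipg on SFA with quantile normalization. With only the arrays compared, Mia3, Abcg1, Gpihbp1 and Foxo1 on ALA and Lipg on SFA were lost. Apart from smaller sets of arrays or genes, the cause was not tested.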
